A study of Mus musculus with 6 samples.

Results

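Complex I, the NADH:ubiquinone oxidoreductase of the inner mitochondrial membrane, was examined through the 46 protein-coding genes whose mouse symbol begins with Nduf, out of 52550 rows in the deposited table. The rule uses names alone, so no measured value chose the genes. By role they comprised 36 subunits, 8 assembly factors (Ndufaf1 to Ndufaf8) and a pair, Ndufa4 and Ndufa4l2, that carry the family name without being counted as complex I subunits here. For brevity all 46, this pair included, are called complex I genes below. The other 5 Nduf rows are annotated as pseudogenes or noncoding RNA and were set aside.

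RNA came from infarcted hearts of lncRNA-DRR-/- mice (KO, 3 libraries), which lack a long noncoding RNA, and of wild-type mice (WT, 3 libraries). All mice were C57BL/6, had the left anterior descending coronary artery tied permanently at 8 weeks of age, and were sampled at 10 weeks, 2 weeks after the operation. The series as analysed here has no sham-operated heart, so levels describe infarcted tissue only. The labels do not say how the deletion was made, which cells it affects, how many matings or days of surgery the mice came from, or whether each library is 1 heart. The p-values therefore measure the spread between these libraries.

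Complex I accepts electrons from NADH in its matrix arm, passes them along iron-sulphur clusters to ubiquinone, and pumps protons through its membrane arm. The catalytic core is surrounded by accessory subunits, and dedicated factors help to assemble the arms before they are joined. A few membrane subunits are encoded in mitochondrial DNA and all others in the nucleus. Heart muscle is among the tissues richest in mitochondria, and complex I is the entry point for most electrons from fatty acid and glucose oxidation.

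Expression values were treated as FPKM, fragment counts scaled to transcript length and library depth, so levels can be set side by side between genes. Depth estimated from the worth of 1 fragment was about 6870000 to 8160000 fragments in KO libraries and about 5190000 to 9400000 fragments in WT libraries, and 14299 to 14869 genes per library reached 0.5 FPKM. The deleted RNA was not analysed here, so it did not check the genotype labels. KO replicate 3 differed in sex-linked genes, with Xist, which silences the second X chromosome of females, at 25.6 FPKM against 0.0742 FPKM or less in the other libraries. Ddx3y, a gene of the Y chromosome, was at 0.0280 FPKM in that library and at 13.02 FPKM or more in the others. By these genes 1 KO library came from female tissue and the other 5 libraries from male tissue, and the labels give no sex. Sex was thus not balanced between the genotypes, and the fit did not include it.

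Subunit genes were abundant but far from equal in level. The 36 subunits had a median of 82.8 FPKM (mean over 6 libraries), against 4.26 FPKM for the median of the 14656 genes tested, and 15 of them exceeded 100 FPKM. The highest was Ndufa6, an accessory subunit of the matrix arm that docks an acyl carrier protein, with a mean of 354 FPKM. The lowest was Ndufb2, an accessory subunit of the membrane arm, with a mean of 3.96 FPKM, which made an 89.4-fold range among genes whose proteins enter the same complex. Ndufb2 has an annotated coding transcript of 4371 bases, and which transcript lengths the deposited values were divided by is not given in the sources used here. Assembly factors lay lower as a group, between 3.34 FPKM for Ndufaf3 and 14.4 FPKM for Ndufaf1.

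**Figure D1:**
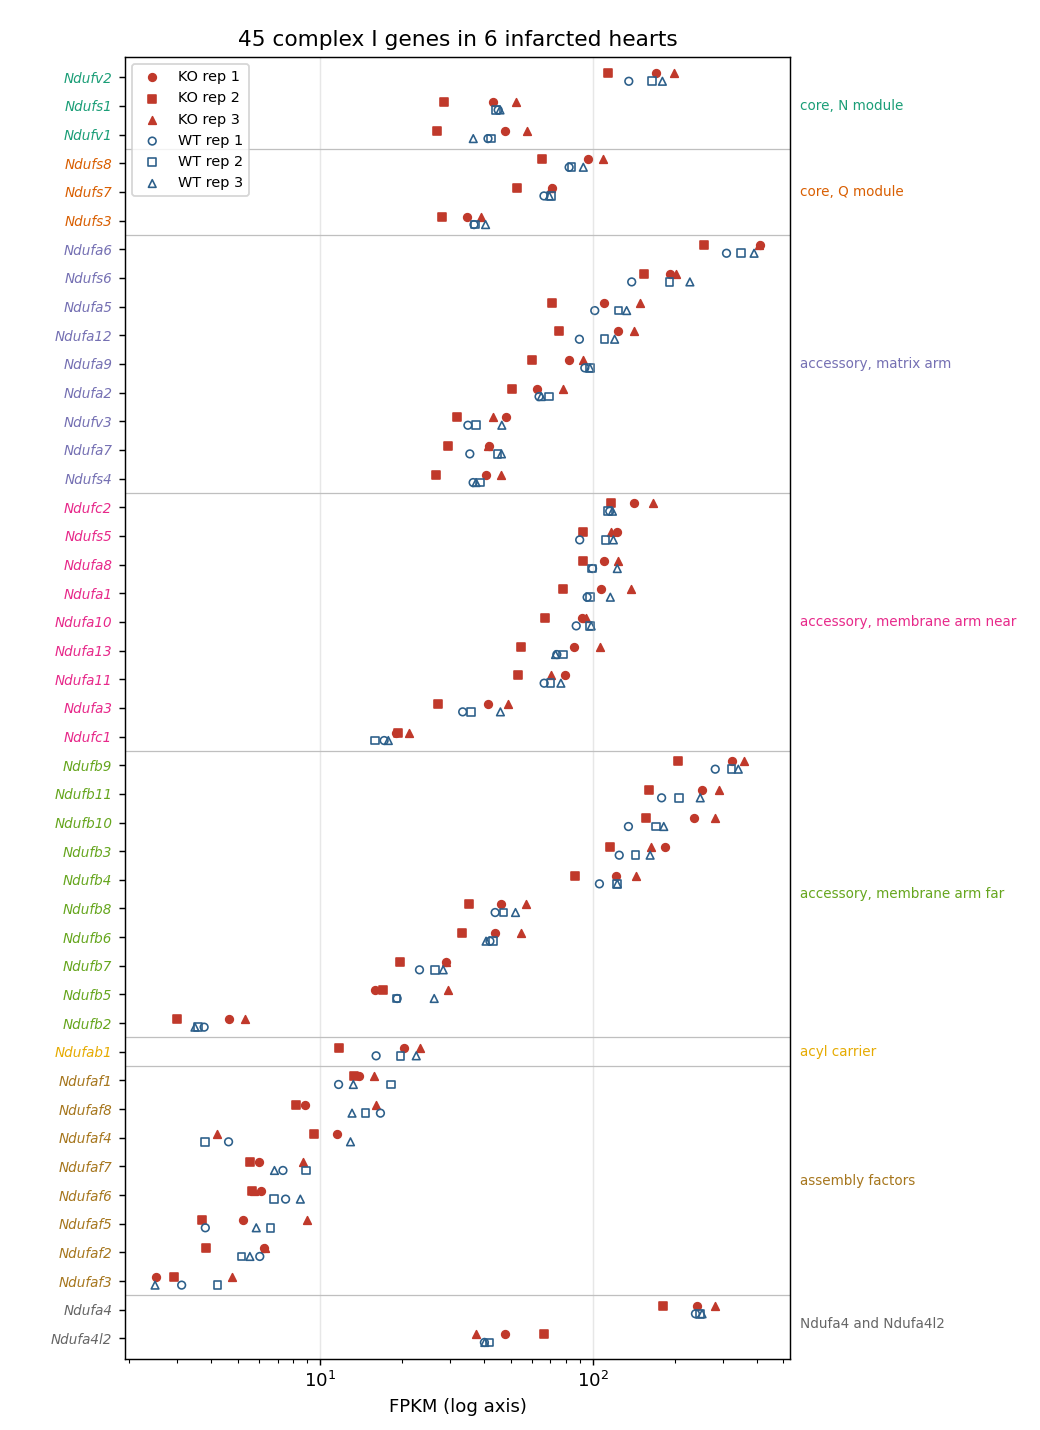
FPKM of 45 of the 46 complex I genes (log axis) in each library, with KO as filled red symbols drawn above WT as open blue symbols and genes grouped by role. Subunits span 3.96 to 354 FPKM in their means, assembly factors have means of 14.4 FPKM or less, and the KO replicate 2 square lies at the left of most rows.

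Between the genotypes no complex I gene was called. None of the 46 reached an adjusted p under 0.05 by limma, against 0.375% of all 14656 tested genes, and 1 had an unadjusted p under 0.05 against 8.48% of all. The genes divided evenly, with 23 higher and 23 lower in KO hearts, while 49.3% of all tested genes were higher and 50.7% lower. Their median log2 difference was 0.0014, beside a median of -0.0042 over all tested genes. All 46 differences were smaller than 0.5 on the log2 scale, and 39 were smaller than 0.25. The 95% interval of a difference reached a median of 0.54 to either side. By these intervals, changes of up to roughly that size in single genes cannot be told from none with 3 libraries a genotype. The intervals are not adjusted for the number of genes tested. At the same spread, a call needed a larger difference than an interval that leaves out 0. The genes at the ends of the range lie, in GENCODE M21 on GRCm38, at chr17:24722060-24724478 (minus strand) for Ndufb10 and at chr11:120098928-120100705 (plus strand) for Ndufaf8. In 43 of the 46 genes the whole interval lay within -1 and 1. In RNA from whole hearts, fewer cells of a type and less RNA per cell cannot be told apart.

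**Figure D2:**
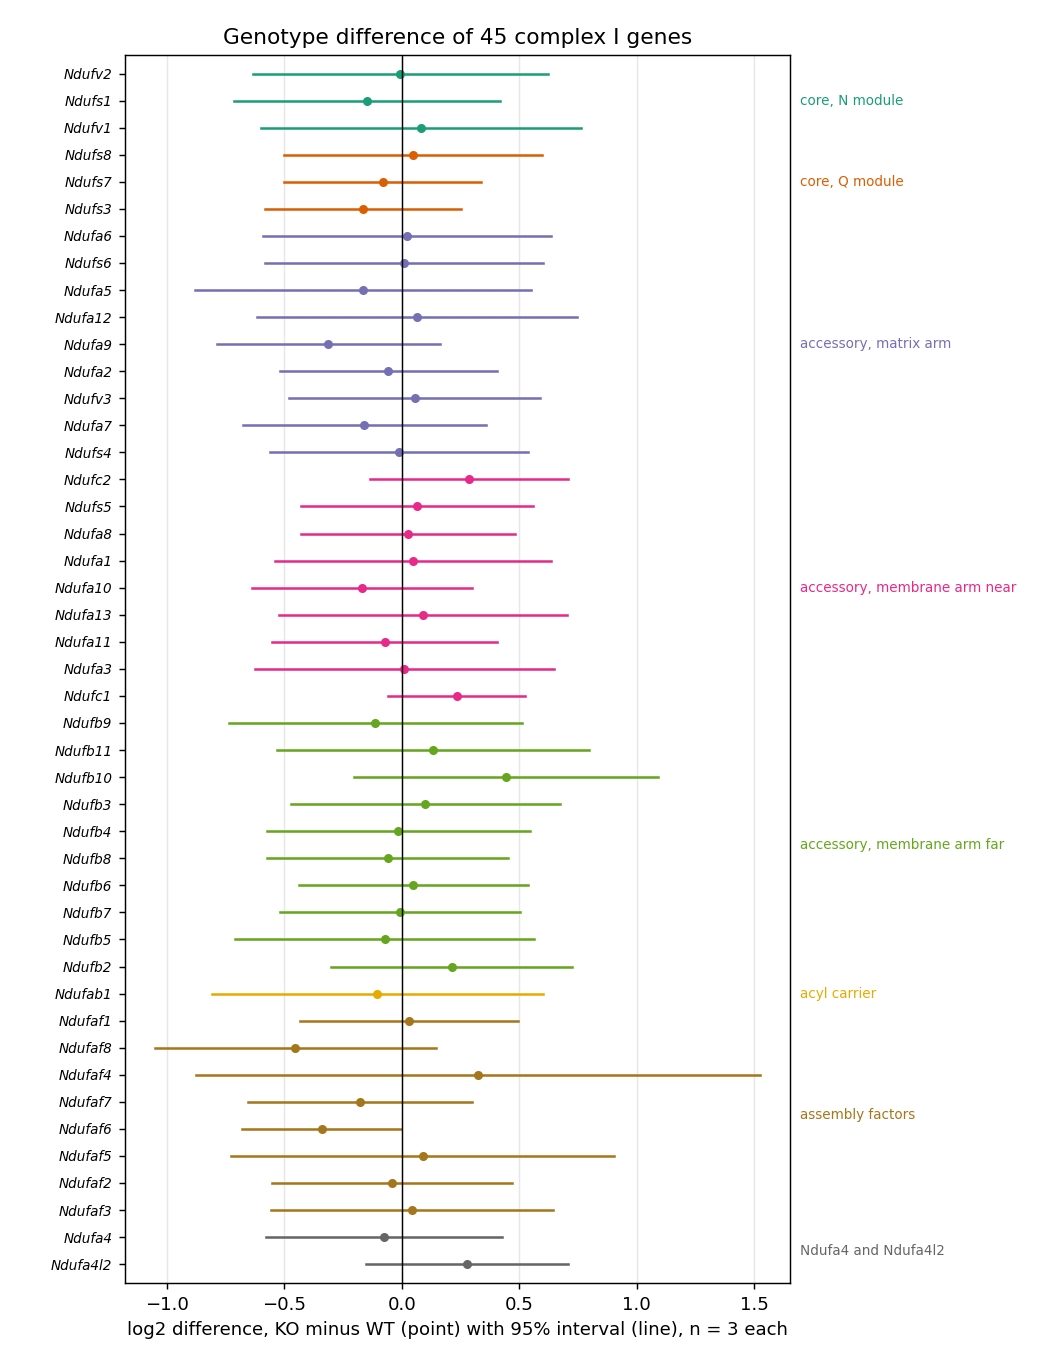
Log2 difference, KO minus WT, of 45 of the 46 complex I genes (point) with its limma 95% interval (line), n = 3 libraries a genotype, genes grouped by role. Points lie between -0.45 (Ndufaf8) and 0.44 (Ndufb10), and only the interval of Ndufaf6 stops short of 0, at an upper bound of -0.0035.

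What varied was the level from library to library, and it varied most among the KO libraries. KO replicate 2 held the lowest value of 37 of the 46 genes and KO replicate 3 the highest of 27, whereas these libraries held the lowest value of 20.8% and the highest value of 17.7% of all tested genes. In KO replicate 2, 44 of the 46 genes lay under their own mean over the 6 libraries; in KO replicate 3, 43 lay above it. Summed over the 46 genes, FPKM came to 4141, 2932 and 4604 in KO replicates 1 to 3, against 3451, 3865 and 4168 in WT replicates 1 to 3. The WT libraries followed an order of their own, with WT replicate 1 the lowest of the 3 WT libraries for 39 genes and WT replicate 3 the highest for 37. The median SD of the log2 values within a genotype was 0.43 among KO libraries and 0.21 among WT libraries, against 0.21 and 0.18 for all tested genes, and 40 of the 46 genes had the larger SD in KO (57.9% of all tested genes did). Whether the spread itself differs between genotypes was not tested. The KO libraries mixed the sexes, with Xist high only in KO replicate 3, and the WT libraries did not. How much of the KO spread goes with sex was not tested.

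**Figure D3:**
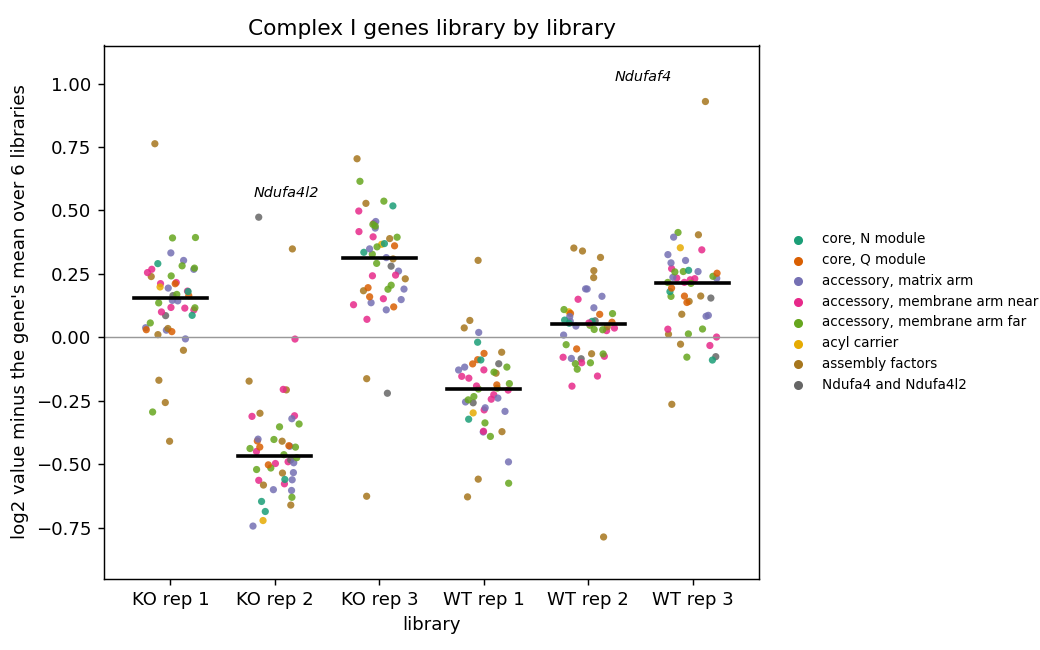
Each point is 1 complex I gene, shown as its log2 value minus its mean over the 6 libraries, for KO and then WT replicates; black bars are medians over the 46 genes and colours give the role. The bar is at -0.47 in KO replicate 2 and at 0.31 in KO replicate 3, with Ndufa4l2 standing above the others in KO replicate 2.

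The even split between genotypes depended on those libraries. Without KO replicate 2, 42 of the 46 genes were higher in KO and the median log2 difference was 0.22. Without KO replicate 3, which left only libraries male by Ddx3y, 38 were lower and the median was -0.17. Without KO replicate 1 the median was -0.09 (32 lower). Without WT replicate 1 it was -0.13 (37 lower), without WT replicate 2 it was 0.01 (21 lower), and without WT replicate 3 it was 0.06 (16 lower). No complex I gene was called by limma in any of these 6 fits. Their lowest limma adjusted p was 0.14, for Ndufaf8 without KO replicate 3. Without KO replicate 2, 5 genes had an unadjusted limma p under 0.05, led by Ndufb2 with an adjusted p of 0.31.

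Markers of heart muscle lay on the same side of their means as complex I subunits in each library. Those of scar tissue lay on the opposite side except in KO replicate 1, where both were above. The 13 cardiomyocyte markers, genes such as Myh6 and Tnnt2, had median log2 deviations of 0.03, -0.47 and 0.18 in KO replicates 1 to 3 and of -0.19, 0.15 and 0.33 in WT replicates 1 to 3. The 36 complex I subunits had 0.17, -0.48 and 0.33 in the same KO libraries and -0.21, 0.05 and 0.23 in the WT libraries. All 13 cardiomyocyte markers and all 36 subunits lay under their own means in KO replicate 2, while all 12 fibroblast and scar markers lay above theirs. Fibroblast and scar markers, genes such as Col1a1 and Postn, had median deviations of 0.19, 0.62 and -0.25 in KO replicates and 0.46, -0.31 and -0.57 in WT replicates. Their summed FPKM ran from 1454 to 2937 in KO libraries and from 1236 to 2546 in WT libraries, and that of the cardiomyocyte markers from 19229 to 26215 in KO and from 17999 to 26657 in WT. Between genotypes, 12 of the 13 cardiomyocyte markers were lower in KO, with a median log2 difference of -0.15. Of the 12 fibroblast and scar markers 11 were higher in KO, with a median of 0.27. The 36 complex I subunits divided into 18 higher and 18 lower, with a median of 0.0014. No gene of these lists was called by limma. Leucocyte markers, of which 9 of 10 were tested, summed to between 299 and 459 FPKM in KO libraries and between 524 and 843 FPKM in WT libraries. Most of that sum came from 1 gene, Cd74, with a mean of 359.6 FPKM. Their median log2 deviations overlapped between genotypes, at -0.37, 0.0013 and -0.39 in KO replicates and 0.68, 0.19 and -0.09 in WT replicates, and 8 of the 9 were lower in KO. Of the leucocyte markers 1 was called by limma, S100a8, a neutrophil gene that was lower in KO and is named here after its values were seen. None of the tested markers was listed at 0 in any library. The 8 endothelial markers, 7 smooth muscle and pericyte markers and 5 erythroid markers had median log2 differences of 0.09, 0.18 and -0.56, with no gene called. How much of the complex I spread goes with the make-up of the tissue was not tested.

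**Figure D4:**
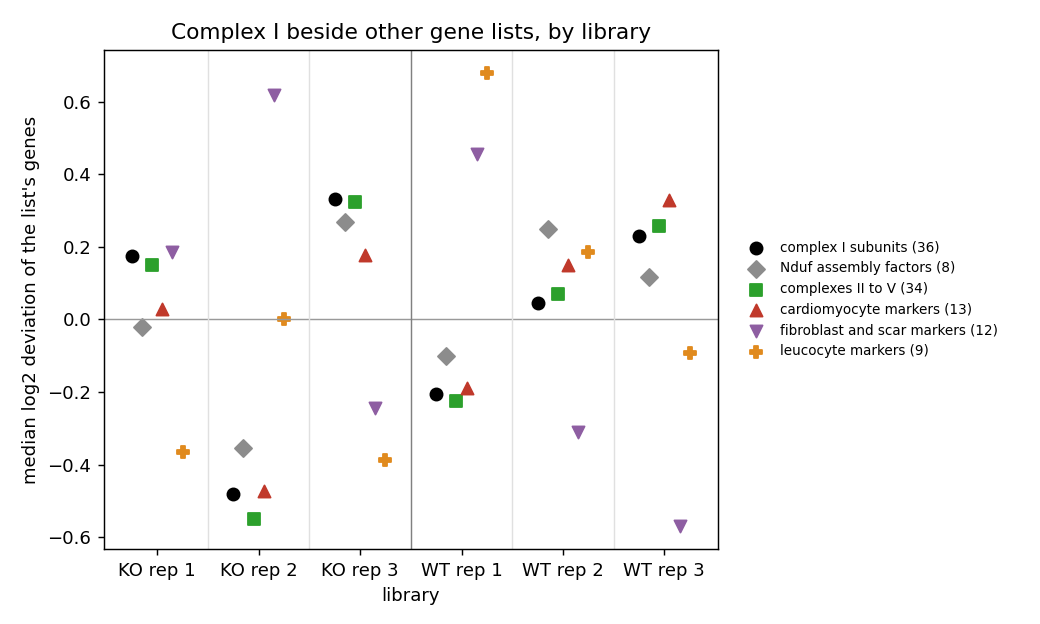
Median log2 deviation of 6 gene lists in each library (a gene's log2 value minus its mean over the 6 libraries), KO replicates left of WT replicates. Complex I subunits, complexes II to V and cardiomyocyte markers lie together, at -0.48, -0.55 and -0.47 in KO replicate 2, where fibroblast and scar markers are at 0.62.

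The core subunits of the NADH-oxidising end, or N module, showed the library order clearly. Ndufv1, which binds the flavin cofactor and oxidises NADH, stood at 47.9, 26.8 and 57.3 FPKM in KO replicates 1 to 3, against 41.3, 42.3 and 36.5 FPKM in WT replicates 1 to 3. Ndufv2, which holds an iron-sulphur cluster beside it, stood at 171, 114 and 199 FPKM in KO, against 136, 165 and 180 FPKM in WT. Ndufs1, the largest subunit and carrier of several clusters, stood at 43.1, 28.6 and 52.3 FPKM in KO, against 45.04, 44.1 and 45.8 FPKM in WT. In all 3 genes KO replicate 2 was the lowest and KO replicate 3 the highest of the 6 libraries, and the WT values lay between them. The log2 differences were 0.08 ± 0.29 for Ndufv1, -0.01 ± 0.27 for Ndufv2 and -0.15 ± 0.24 for Ndufs1 (KO minus WT ± SE, n = 3 each; limma adjusted p from 0.92 to 1.0). For Ndufv1, WT replicate 3 was the lowest of the WT libraries, unlike in most of the family.

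Core subunits of the ubiquinone-reducing Q module showed smaller spreads. Ndufs3, a scaffold of this module, stood at 34.6, 28.0 and 39.0 FPKM in KO replicates 1 to 3, against 36.7, 37.0 and 40.5 FPKM in WT replicates 1 to 3. As deposited, KO replicates 1 and 2 of Ndufs3 lay under every WT library and KO replicate 3 lay among them. After scaling, KO replicate 1 lay above WT replicate 1. Ndufs7, which holds the last iron-sulphur cluster before ubiquinone, stood at 71.0, 53.0 and 70.3 FPKM in KO, against 66.3, 70.3 and 69.4 FPKM in WT. Ndufs8, which carries a pair of clusters, stood at 96.1, 65.0 and 109 FPKM in KO, against 82.0, 83.7 and 92.5 FPKM in WT. In both genes KO replicate 2 was the lowest of the 6 libraries and the other KO libraries lay among or above the WT libraries. The log2 differences were -0.17 ± 0.18 for Ndufs3, -0.08 ± 0.18 for Ndufs7 and 0.05 ± 0.23 for Ndufs8 (limma adjusted p from 0.86 to 0.98).

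Among the 9 accessory subunits of the matrix arm, 8 had their lowest value in KO replicate 2. Ndufa6 stood at 411, 256 and 408 FPKM in KO replicates 1 to 3, against 310, 349 and 391 FPKM in WT replicates 1 to 3 (log2 difference 0.02 ± 0.26, limma adjusted p = 0.99). Ndufa9, a subunit near the junction with the membrane arm, had the most negative difference among subunits, with 81.7, 60.0 and 92.1 FPKM in KO, against 93.6, 97.6 and 97.7 FPKM in WT. As deposited, its 3 KO values all lay under the WT values, but after scaling between libraries the genotypes overlapped. The log2 difference of Ndufa9 was -0.31 ± 0.20 (95% interval -0.79 to 0.16, limma adjusted p = 0.76). In the same group Ndufs4, whose loss in mice gives a model of Leigh syndrome, averaged 37.8 ± 10.1 FPKM in KO and 37.5 ± 1.1 FPKM in WT (SD, n = 3 each), close in mean and different in spread. Ndufs6 was the exception to the library order in this group: WT replicate 1 was lowest at 139 FPKM, under 155 FPKM in KO replicate 2.

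Of the 9 accessory subunits of the membrane arm nearer the matrix arm, 7 were higher and 2 lower in KO, with none called. Ndufc2 stood at 141, 117 and 166 FPKM in KO replicates 1 to 3, against 116, 114 and 118 FPKM in WT replicates 1 to 3. Ndufc1 stood at 19.0, 19.4 and 21.2 FPKM in KO, against 17.2, 15.9 and 17.8 FPKM in WT, the smallest spread over the 6 libraries in the family (SD 0.17 on the log2 scale). As deposited, all 3 KO values of Ndufc1 exceeded the WT values, though the genotypes overlapped after scaling. For Ndufc2 KO replicates 1 and 3 exceeded every WT library and KO replicate 2 lay among them, and in neither gene was KO replicate 2 the lowest library after scaling. The log2 differences were 0.29 ± 0.18 for Ndufc2 (95% interval -0.14 to 0.71, limma adjusted p = 0.76) and 0.23 ± 0.12 for Ndufc1 (95% interval -0.06 to 0.53, limma adjusted p = 0.70). Ndufa13, also known as Grim19, averaged 81.9 ± 25.9 FPKM in KO and 74.99 ± 2.6 FPKM in WT (SD, n = 3 each). Within KO, Ndufa13 was lowest in replicate 2 (54.6 FPKM) and highest in replicate 3 (106 FPKM).

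The 10 accessory subunits further out in the membrane arm included the gene with the most positive difference of the family. Ndufb10 stood at 235, 157 and 280 FPKM in KO replicates 1 to 3, against 135, 171 and 182 FPKM in WT replicates 1 to 3. The KO replicates 1 and 3 exceeded every WT library and KO replicate 2 lay among them. The log2 difference of Ndufb10 was 0.44 ± 0.28 (95% interval -0.20 to 1.09, limma adjusted p = 0.75), and 0.73 ± 0.20 without KO replicate 2 (limma adjusted p = 0.33). When each library was scaled on its own complex I genes, a setting chosen after the data were seen, Ndufb10 differed by 0.45 ± 0.17 and again was not called (limma unadjusted p = 0.023, adjusted p = 0.98). Of the 10, 9 had their lowest value in KO replicate 2 and 8 their highest in KO replicate 3.

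Ndufa1 and Ndufb11 are the X-linked genes of the family, and both were highest in KO replicate 3, the library with Xist. Ndufa1 stood at 108, 78.1 and 139 FPKM in KO replicates 1 to 3, against 95.5, 97.8 and 116 FPKM in WT replicates 1 to 3. Ndufb11 stood at 252, 162 and 290.0 FPKM in KO, against 179, 208 and 248 FPKM in WT. That library held the highest value of 27 of the 46 genes, these 2 included. Without KO replicate 3 the log2 difference was -0.17 for Ndufa1 and -0.06 for Ndufb11, with it 0.05 and 0.13.

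Ndufab1, the mitochondrial acyl carrier protein, which also serves fatty acid and lipoate synthesis, stood at 20.3, 11.7 and 23.4 FPKM in KO replicates 1 to 3, against 16.1, 19.7 and 22.6 FPKM in WT replicates 1 to 3. Its KO replicate 2 value was the lowest of the 6 and its KO replicate 3 value the highest (log2 difference -0.10 ± 0.30, limma adjusted p = 0.96).

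Of the 8 assembly factors, 5 were lowest in KO replicate 2 and 3 highest in KO replicate 3, beside 31 and 23 of the 36 subunits; the difference between these shares was not tested. At their levels the values rest on few fragments: taking the longest coding transcript, Ndufaf3 corresponds to about 19 to 50 fragments a library, against about 1575 to 2320 for Ndufv2. Ndufaf6, needed in human cells for an early step of assembly, stood at 6.09, 5.62 and 5.72 FPKM in KO replicates 1 to 3, against 7.49, 6.79 and 8.48 FPKM in WT replicates 1 to 3. Ndufaf6 was the 1 gene of the 46 whose genotypes did not overlap after scaling, as 14.0% of all tested genes did not. Its log2 difference was -0.34 ± 0.14 (limma unadjusted p = 0.048, adjusted p = 0.58). Ndufaf8, a partner of Ndufaf5 in human cells, had the most negative difference of the family, with 8.85, 8.19 and 16.1 FPKM in KO, against 16.7, 14.7 and 13.1 FPKM in WT. After scaling, KO replicates 1 and 2 lay under every WT library and KO replicate 3 lay above them (log2 difference -0.45 ± 0.26, 95% interval -1.05 to 0.14, limma adjusted p = 0.71). Without KO replicate 3 the difference was -0.76 ± 0.14 (limma adjusted p = 0.14).

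Ndufaf4, which acts with Ndufaf3 on the Q module, stood apart from the rest of the family. It had 11.5, 9.51 and 4.20 FPKM in KO replicates 1 to 3, against 4.62, 3.78 and 12.9 FPKM in WT replicates 1 to 3. The 6 libraries fell into a high and a low set of 3 that both held KO and WT libraries, and neither set matched the order of the subunits. Ndufaf4 had the largest spread of the family (SD 0.77 on the log2 scale) and the widest interval, a log2 difference of 0.32 ± 0.51 with a 95% interval from -0.88 to 1.52 (limma adjusted p = 0.92). Its partner Ndufaf3, the gene of lowest level, stood at 2.51, 2.91 and 4.77 FPKM in KO, against 3.11, 4.21 and 2.49 FPKM in WT, with a log2 difference of 0.04 ± 0.26. The remaining factors showed differences of 0.03 for Ndufaf1, -0.04 for Ndufaf2, 0.09 for Ndufaf5 and -0.18 for Ndufaf7, a methyltransferase.

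Ndufa4 and its paralog Ndufa4l2 went opposite ways across the KO libraries. Ndufa4, now assigned to cytochrome c oxidase, stood at 241, 181 and 282 FPKM in KO replicates 1 to 3, against 238, 248 and 252 FPKM in WT replicates 1 to 3. Ndufa4l2, which is induced by hypoxia, stood at 47.9, 66.1 and 37.3 FPKM in KO, against 40.1, 41.9 and 40.2 FPKM in WT. Ndufa4 was thus lowest and Ndufa4l2 highest in KO replicate 2, and Ndufa4l2 was the only gene of the 46 to peak there. The ratio of KO replicate 3 to KO replicate 2 in FPKM had a median of 1.60 over the 46 genes, against 0.91 over all tested genes. Ndufaf4 had the lowest ratio, 0.44, and Ndufaf5 the highest, 2.43. Over all 6 libraries neither paralog was called, with log2 differences of -0.08 ± 0.21 for Ndufa4 and 0.28 ± 0.18 for Ndufa4l2 (limma adjusted p = 0.96 and 0.77).

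Promoter sequences were read as a description, and whether their motifs go with the shared library order was not tested. The RefSeq table (GRCm38.p6) held windows for 40 of the 46 genes, from 250 bases before to 50 after each annotated start, and both strands were searched. The motif of NRF1, a factor known for binding promoters of respiratory chain genes, was searched as the capitals of Ndufa5 below with the sixth base left free. It occurred in 9 of 40 (22.5%), against 5.19% of all 27025 genes in the table, a set not matched to the family in level or base composition. AANATGGC, the motif of YY1, occurred in 14 of 40 (35%), against 6.96% of all, and in 8 of those 14 only at or after the start; the pattern itself contains ATG. The core motif of GABPA, an ETS factor, occurred in 6 of 40 (15%), against 9.93%, and that of the oestrogen-related receptors in 3 of 40 (7.5%), against 5.38%. No match of one motif overlapped a match of another. Of the 9 genes, 7 had a match before the start, and the 6 stretches below are those where 15 bases to either side also lay within the part of the window before the start. Capitals mark the match, which in Ndufa8 is to the opposite strand, so that its capitals are the reverse complement of the pattern.
Ndufa8: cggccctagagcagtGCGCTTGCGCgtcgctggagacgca
Ndufaf4: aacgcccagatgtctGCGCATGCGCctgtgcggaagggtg
Ndufs5: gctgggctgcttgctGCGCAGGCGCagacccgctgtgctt
Ndufa5: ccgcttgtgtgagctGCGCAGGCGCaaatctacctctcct
Ndufb4: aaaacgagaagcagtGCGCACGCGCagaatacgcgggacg
Ndufa11: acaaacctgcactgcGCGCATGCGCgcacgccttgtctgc

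These stretches read 5′ to 3′ on the strand of the gene. Ndufa8 lies at chr2:36049344-36049383 (minus strand), Ndufaf4 at chr4:24897955-24897994 (plus) and Ndufs5 at chr4:123718260-123718299 (minus). Ndufa5 lies at chr6:24527692-24527731 (minus), Ndufb4 at chr16:37654535-37654574 (minus) and Ndufa11 at chr17:56717687-56717726 (plus). The capitals begin between 30 bases (Ndufa8) and 191 bases (Ndufb4) before the RefSeq start. In GENCODE M21, Ndufa8 reaches to base 36049406 of chr2 and Ndufa5 to base 24528013 of chr6. By that annotation the stretches of Ndufa8 and Ndufa5 lie inside the gene. Of these 6 genes, Ndufaf4 was lowest in WT replicate 2, Ndufs5 in WT replicate 1 and the other 4 in KO replicate 2. A match describes the letters and does not show binding.

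The regulators themselves were not called. Nrf1 averaged 1.007 ± 0.29 FPKM in KO and 0.735 ± 0.115 FPKM in WT (SD, n = 3 each), with a log2 difference of 0.29 ± 0.20 (limma adjusted p = 0.79). Ppargc1a, a coactivator of mitochondrial biogenesis, averaged 12.3 ± 2.8 FPKM in KO and 14.7 ± 4.4 FPKM in WT (log2 difference -0.23 ± 0.30, limma adjusted p = 0.89). Esrrg, an oestrogen-related receptor of heart muscle, averaged 4.36 ± 0.60 FPKM in KO and 5.45 ± 0.72 FPKM in WT (log2 difference -0.28 ± 0.18, limma adjusted p = 0.76). Of the 8 regulators listed, 4 were higher and 4 lower in KO. The log2 differences of the others were 0.13 for Ppargc1b, -0.09 for Esrra, -0.02 for Gabpa, 0.05 for Tfam and 0.10 for Yy1.

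Among 14 tested assembly factors without the Nduf name, 7 were higher and 7 lower in KO and none was called, and 11 of the 14 had their lowest value in KO replicate 2. Dmac1, a factor for the distal membrane arm in human cells, averaged 21.4 ± 0.7 FPKM in KO and 18.1 ± 1.3 FPKM in WT (log2 difference 0.25 ± 0.10, limma adjusted p = 0.57). Nubpl, which delivers iron-sulphur clusters to complex I in human cells, averaged 0.478 ± 0.126 FPKM in KO and 0.896 ± 0.248 FPKM in WT (log2 difference -0.50 ± 0.22, limma adjusted p = 0.62). It lay near the 0.5 FPKM filter, at 0.596, 0.345 and 0.492 FPKM in KO replicates 1 to 3, and passed through its WT libraries. The pseudocount of 0.5 is about as large as these values, so the log2 difference of Nubpl is understated. Foxred1 averaged 6.95 ± 0.69 FPKM in KO and 7.93 ± 0.47 FPKM in WT (limma adjusted p = 0.83). A chosen list of 34 nuclear subunits of complexes II to V, not the full set, followed complex I library by library. Its median log2 deviations were 0.15, -0.55 and 0.32 in KO replicates and -0.23, 0.07 and 0.26 in WT replicates. Of those 34, 32 were lowest in KO replicate 2, and none was called.

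The 7 mitochondrially encoded ND genes were listed at 0 in all 6 libraries, although heart tissue transcribes them heavily. Nuclear pseudogenes carried matching sequence: by blastn, Gm28439 matched mt-Nd4 at 100% identity over 876 bases, Gm10222 matched mt-Nd4l at 100% over 294 bases, and Gm28438 matched mt-Nd3 at 99.71% over 345 bases. Gm28439 was listed at 36941, 29531 and 32990 FPKM in KO replicates 1 to 3, against 20800, 32616 and 36242 FPKM in WT replicates 1 to 3. Here WT replicate 1 was the lowest library, as it was for Gm10222 (29962, 28053 and 28727 FPKM in KO, against 18222, 29591 and 33057 FPKM in WT). Gm28438 was listed at 6106, 3561 and 6942 FPKM in KO, against 5552, 5993 and 5221 FPKM in WT, with KO replicate 2 the lowest.

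Shared sequence makes a few of the nuclear genes less certain. Of the 46 genes, 11 share at least 200 bases at 95% identity or more with a transcript of another measured gene, and 5 of these 12 other genes averaged 1 FPKM or more. The pseudogene Ndufb4c, identical to Ndufb4 over 390 bases, had 6.30, 3.54 and 7.02 FPKM in KO replicates 1 to 3, against 3.14, 4.49 and 8.68 FPKM in WT replicates 1 to 3. Ndufb4 itself averaged 117 FPKM in both genotypes. Gm15920, a copy of Ndufa12, averaged 7.83 FPKM over the 6 libraries against 110.3 FPKM for Ndufa12, and Ndufab1-ps averaged 2.20 FPKM against 19.0 FPKM for Ndufab1. How the deposited counting divided reads between such copies is not given in the sources used here. The row Ndufb1-ps is annotated as noncoding and was left out by the rule, so the 36 subunits do not include it. By name it was listed with the outer membrane arm subunits. It stood at 18.7, 14.6 and 24.5 FPKM in KO and at 22.1, 20.1 and 23.6 FPKM in WT, and KO replicate 2 was again its lowest library.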

How the data were processed

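RNA of infarcted hearts in 6 libraries, 3 KO and 3 WT, was grouped by genotype as the sample titles give it. The authors deposited 1 value per gene and library under a title of raw gene counts. The values are scaled to length and were treated as FPKM, with library totals from 442779 to 533319. Per the submitters' processing notes Bowtie 0.12.2 and the builds mm8 and mm9 were used, with no role stated. For the quantifier, the annotation and the strand setting, nothing is stated in the labels. Of 52550 rows, 52403 matched GENCODE M21 by gene identifier (93.3% with the same version), which gave symbols and types. No coordinate was converted. The worth of 1 fragment is the most frequent product of FPKM and length in genes with 1 transcript.

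Genes with at least 0.5 FPKM in 3 or more libraries were tested (14656). Trimmed-mean factors (trims 0.3 and 0.05) lay between 0.949 and 1.07. Log2(FPKM / factor + 0.5) was fitted with limma 3.58.1 in R 4.3.3 (genotype only, mean-variance trend, two-sided, Benjamini-Hochberg adjustment over the whole tested table). The threshold for a call was an adjusted p under 0.05. With this pseudocount the change of low genes is understated. The fit was also run on simulated data with independent noise in each gene and larger changes than any in this family. That run does not bear on the shared library shifts described here. Shared sequence was searched with BLAST+ 2.17.0. Per-library FPKM are as deposited; library orders and overlaps use scaled values unless stated. The gene set and lists were chosen with earlier results of these data known. The genes given in full are the core subunits, Ndufab1, Ndufa4 and Ndufa4l2, the 3 of most positive and the 3 of most negative difference, and those of extreme level or spread; outside the family, the 3 other assembly factors of smallest p and the regulators are named. The values of 1 gene of the family are not reported here, though every fit and count includes it. Further genes given values were chosen after these were seen. Alternatives were other factors, filters, pseudocounts, a robust fit, a replicate block and leaving out each library.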

Additional observations from a re-analysis of the deposited data

How the results depend on the processing

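No complex I gene was called by limma under any of 17 alternatives, 16 planned and 1, scaling on the complex I rows, chosen after the data were seen; unadjusted p under 0.05 was reached by 0 to 5 genes. Over all genes the main count of 55 calls was 20 with no filter on low values, 29 with scaling on the complex I rows, and 12 (without KO replicate 1) to 36 (without KO replicate 3) with one library left out. The other alternatives gave 42 to 65. With a replicate block 0 complex I genes and 42 genes in all were called. The deviations of same-numbered libraries correlated at 0.0076, -0.036 and 0.18, and KO replicate 2 correlated best with WT replicate 1 (0.19). Such correlations cannot show whether same-numbered libraries shared matings or a day of surgery. The labels name no pairs, so the main fit did not use replicate numbers as pairs. The median log2 difference of the family lay between -0.17 and 0.22 with one library left out.

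Leaving out one library turned the direction of 10 uncalled genes among those given in full. The log2 difference ranged from -0.16 to 0.45 for Ndufv1, -0.19 to 0.27 for Ndufv2, -0.35 to 0.14 for Ndufs1, -0.287 to 0.00846 for Ndufs3, -0.18 to 0.10 for Ndufs7 and -0.12 to 0.31 for Ndufs8. It ranged from -0.31 to 0.23 for Ndufab1, -0.24 to 0.14 for Ndufa4, -0.12 to 0.29 for Ndufa6 and -0.21 to 0.22 for Ndufaf3. The count of genes lowest in KO replicate 2 (37) was 37 with median-of-ratios and upper-quartile factors and 36 without scaling. The fewest fragments stood behind Ndufaf2 and Ndufaf3, about 19 in their lowest library; whether depth sets the width of the intervals was not tested.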
